A study of Mus musculus with 9 samples.

Results

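H2A.Z is a variant of histone H2A that is placed at active promoters and enhancers, and ANP32E is a histone chaperone that binds H2A.Z and takes it out of chromatin. ATAC-seq reads open chromatin: the Tn5 transposase cuts accessible DNA, and a peak is a stretch where sequenced fragments pile up above their surroundings. The comparison described here asked where accessibility seen in cells without ANP32E was no longer called once H2A.Z had been depleted.

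The cells were primary mouse embryonic fibroblasts below passage 8, and 1 peak list was deposited for each of 4 groups. WT cells gave 3 libraries and Anp32e null cells, which lack the chaperone, gave 3. Both siRNA groups were Anp32e null cells as well: 1 library came from cells with non-targeting (NT) siRNA and 2 from cells with a pool of siRNAs against H2A.Z, collected 48 h after transfection. The authors merged the libraries of a group before peaks were called, so each group is 1 list without replicate error, no test was possible, and the lists cannot show whether H2A.Z protein fell or the Anp32e gene was disrupted.

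Overlapping or touching peaks of the 4 lists on chromosomes 1 to 19 were joined into 125387 sites, of which 84268 held an NT siRNA peak. From these, 4569 sites were chosen by 1 rule: an NT siRNA peak was present and no H2A.Z siRNA peak was. They are called uncalled sites below, and the other 79699 NT siRNA sites are called sites. The uncalled sites made up 5.42% of the NT siRNA sites (95% Wilson interval 5.27 to 5.58%, which covers counting error only). Since the rule used presence and absence in the siRNA lists, this share and the NT siRNA values below describe the selection and test nothing.

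The uncalled sites were divided by the 2 lists that the rule did not use. Neither WT nor the untransfected null cells had a peak at 2933 of them, which is 64.2%. Both had one at 673 sites, WT alone at 507 and null alone at 456. The share with both, 14.7%, depended on how the lists were cut: it was 24.6% with lists of equal length, 30.6% among the top 20000 peaks of each list and 42.7% under 50% reciprocal overlap.

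The DNA at the strongest uncalled sites is printed first, because it shows that they are not of 1 kind. Each line is the plus strand of GRCm38 (mm10), 201 bp centred on the NT siRNA summit, for the 3 sites of highest NT siRNA fold with WT and null peaks the 2 highest with WT or null peaks alone, and the highest with neither. Capitals mark TGACTCA (bound by AP-1, the FOS and JUN dimers), TTGGCA (a half-site of nuclear factor I, NFI), TGTGGT (RUNX factors) and GGAATG (TEAD factors) on either strand.
WT and null, site 1, chr17:70963651-70963851: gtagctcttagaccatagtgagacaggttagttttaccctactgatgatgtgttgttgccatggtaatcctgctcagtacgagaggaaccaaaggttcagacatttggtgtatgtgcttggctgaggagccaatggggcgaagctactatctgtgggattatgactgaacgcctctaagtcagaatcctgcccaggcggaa
WT and null, site 2, chr16:17222260-17222460: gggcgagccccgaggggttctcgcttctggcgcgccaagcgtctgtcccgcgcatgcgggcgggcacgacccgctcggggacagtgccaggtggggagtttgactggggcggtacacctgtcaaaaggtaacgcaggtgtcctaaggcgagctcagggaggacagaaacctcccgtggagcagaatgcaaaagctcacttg
WT and null, site 3, chr6:84657218-84657418: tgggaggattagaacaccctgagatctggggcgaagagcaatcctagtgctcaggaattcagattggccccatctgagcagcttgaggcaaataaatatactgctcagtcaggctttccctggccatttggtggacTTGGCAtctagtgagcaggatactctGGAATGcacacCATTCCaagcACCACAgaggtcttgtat
WT alone, site 1, chr4:95346806-95347006: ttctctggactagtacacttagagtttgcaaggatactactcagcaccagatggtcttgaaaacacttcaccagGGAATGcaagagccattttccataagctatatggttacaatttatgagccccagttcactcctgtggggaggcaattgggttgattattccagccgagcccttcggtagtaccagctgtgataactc
WT alone, site 2, chr8:8103600-8103800: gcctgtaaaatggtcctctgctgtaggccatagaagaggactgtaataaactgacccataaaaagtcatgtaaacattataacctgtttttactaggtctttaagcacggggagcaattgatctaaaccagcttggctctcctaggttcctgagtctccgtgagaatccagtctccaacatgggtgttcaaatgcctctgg
null alone, site 1, chr10:30398951-30399151: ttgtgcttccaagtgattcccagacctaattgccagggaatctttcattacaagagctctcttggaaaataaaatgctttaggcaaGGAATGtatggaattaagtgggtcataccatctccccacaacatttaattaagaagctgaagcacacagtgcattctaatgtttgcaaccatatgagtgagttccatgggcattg
null alone, site 2, chr8:32015966-32016166: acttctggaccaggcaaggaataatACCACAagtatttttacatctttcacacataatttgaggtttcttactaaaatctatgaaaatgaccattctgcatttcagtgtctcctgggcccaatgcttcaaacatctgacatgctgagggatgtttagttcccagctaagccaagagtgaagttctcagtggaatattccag
neither WT nor null, site 1, chr13:27684162-27684362: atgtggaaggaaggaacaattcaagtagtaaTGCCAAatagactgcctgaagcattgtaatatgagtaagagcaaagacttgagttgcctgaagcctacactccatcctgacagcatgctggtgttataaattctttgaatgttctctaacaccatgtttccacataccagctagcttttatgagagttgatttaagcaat

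No TGACTCA occurs in 11 windows of the strongest sites, of which 8 are shown. TTGGCA was found in 4 of the 11, GGAATG in 3, and TGTGGT in 2. Over all uncalled windows these words were in 9.83, 22.8, 21.8 and 22.0%, so 11 windows are too few to set apart, and a match is only a match of letters.

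The first and second of the WT and null windows carry none of the 4 words, and both read as pieces of 28S ribosomal RNA, the RNA of the large ribosomal subunit, whose genes lie in tandem arrays. GENCODE transcripts of Lars2, a mitochondrial leucyl-tRNA synthetase whose last exon holds such a piece, contained 49 of the 177 words of 25 bases in the first window and 21 of the 177 in the second. The other 9 windows shared 0 such words with Lars2. Among all 4569 uncalled sites, 6 shared at least 1.

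The first of these sites, in an intron of the lincRNA Gm26561 on chromosome 17, was the strongest uncalled site. Its summit was covered by 526 fragments after NT siRNA, 248 in null and 342 in WT, which are folds of 32.1, 21.9 and 20.6 over the local background. The second, in intergenic DNA 11212 bp from the start of Hic2, a transcriptional repressor, had folds of 29.6, 21.0 and 18.9. The rRNA-like piece in the UTR of Lars2 itself was called in all 4 lists, with folds of 35.9 (NT siRNA), 32.5 (H2A.Z siRNA), 29.2 (WT) and 28.8 (null). The Lars2 peak was 403 bp wide after NT siRNA. The peaks on chromosomes 17 and 16 were 245 and 244 bp wide after NT siRNA and 229 to 242 bp in WT and null, and the narrowest peak anywhere in the H2A.Z siRNA list had 249 bp.

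That lower limit of width differed between the lists, from 249 bp (H2A.Z siRNA) and 227 bp (NT siRNA) to 215 bp in null and 211 bp in WT. An NT siRNA peak narrower than 249 bp stood at 1023 uncalled sites, 22.4% (21.2 to 23.6%), against 2.87% of called sites. The share ran from 16.5% of the uncalled sites with WT and null peaks to 24.1% of those with neither. Without all NT siRNA sites below that width, 3546 of 80958 were uncalled, 4.38%. The median width was 288 bp at uncalled and 567 bp at called sites.

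**Figure D1:**
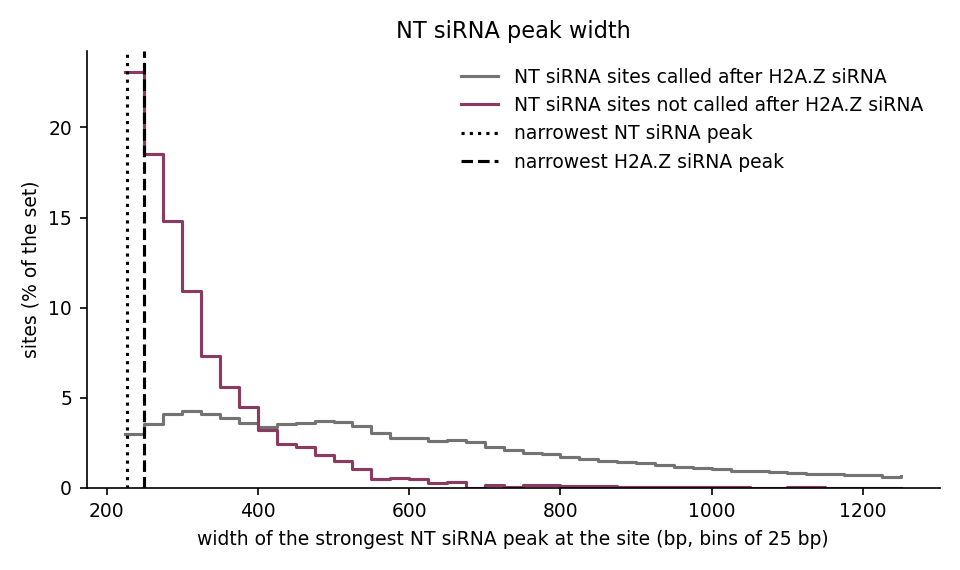
Width of the strongest NT siRNA peak at each site (bp, bins of 25 bp) as a percentage of the uncalled sites (purple) and of the called sites (grey). Vertical lines mark the narrowest NT siRNA peak (227 bp) and the narrowest H2A.Z siRNA peak (249 bp), and the uncalled sites crowd against these limits.

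Depth also differed between the siRNA lists. The genome-wide background implied by the peak scores was 3.88 fragments for NT siRNA and 17.8 for the H2A.Z siRNA list, 4.59 times as many. At that background, the lowest pileup called was 11 fragments after NT siRNA (fold 2.45) and 32 after H2A.Z siRNA (fold 1.75). The lowest fold called after NT siRNA was thus above the lowest called after H2A.Z siRNA, which put nearly all uncalled sites above the latter by construction.

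Uncalled sites were weak NT siRNA peaks. Their median NT siRNA fold was 3.69, with a middle range of 3.07 to 4.51, against 7.58 at called sites, and their median summit held 20 fragments against 58. Among the top 20000 peaks of each list, where the lowest NT siRNA fold was 11.9, the medians were 12.8 and 15.5. In the ranking of NT siRNA peaks by fold, the median uncalled site stood at percentile 14.9. Those with WT and null peaks were the strongest, with a median fold of 4.10, followed by null alone at 3.89, WT alone at 3.69 and neither at 3.48.

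When the NT siRNA sites were cut into 10 bands of equal size by fold, 21.8% of the weakest band were uncalled, 15.3% of the next, 9.27% of the third and 4.52% of the fourth. In the strongest 4 bands the uncalled sites numbered 23, 9, 3 and 2. Called sites of the weakest band had a median H2A.Z siRNA fold of 2.76 and those of the fourth 5.03, beside NT siRNA folds of 2.98 and 5.53. The lists differ in depth, so the folds are given side by side and not compared. These folds belong to sites that had an H2A.Z siRNA peak by definition.

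Presence in the untransfected cells went with presence after H2A.Z siRNA. Of the NT siRNA sites with WT and null peaks, 1.16% were uncalled, against 6.22% with a null peak alone, 11.4% with a WT peak alone and 20.5% with neither. The order held inside each of the 5 weakest bands of NT siRNA fold: in the weakest, 7.17, 13.3, 21.0 and 31.6% were uncalled, and in the fourth 2.02, 3.71, 6.93 and 11.1%. Over the 19 autosomes the share without WT and null peaks ranged from 12.5% on chromosome 11 to 27.2% on chromosome 13, and every autosome lay above the highest value with both, 1.49%.

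**Figure D2:**
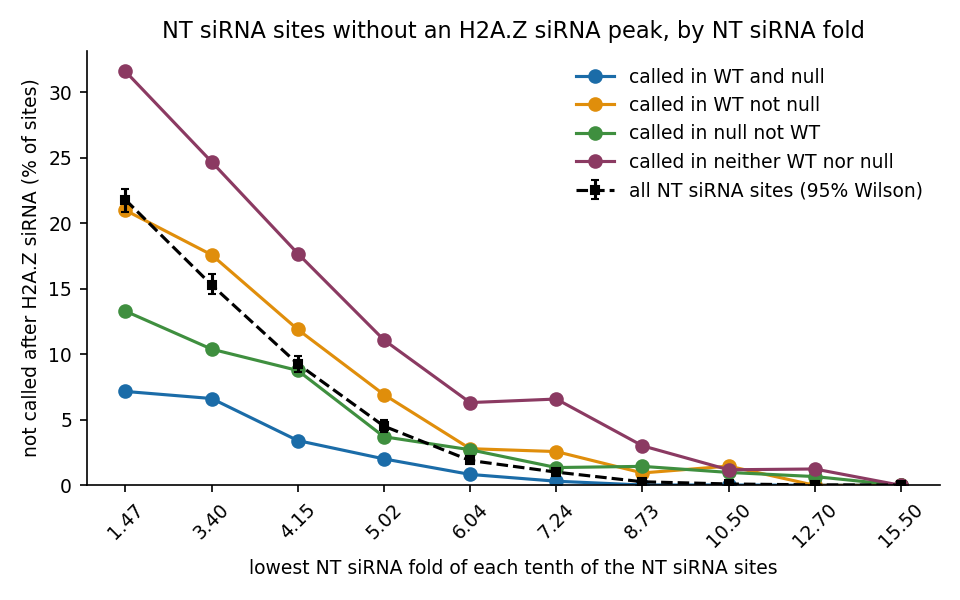
Percentage of NT siRNA sites without an H2A.Z siRNA peak (vertical) in bands of the sites by NT siRNA fold (horizontal, lowest fold of each band), for all sites (black, with 95% Wilson intervals) and divided by peaks in WT and null cells. Over the 5 weakest bands the share falls with fold in all 4 divisions and is highest, from 31.6 to 6.32%, where neither WT nor null cells had a peak.

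The share uncalled depended on how the lists were cut. It was 10.4% when each list was cut to the 80433 peaks of the shortest, and 16.6% among the top 20000 of each list by fold. Thinning the called H2A.Z siRNA peaks to the NT siRNA background gave 9.59%, without downsampling reads or calling peaks again. It was 3.36% for NT siRNA peaks with a −log10 q of 5 or more, and 18.6% of NT siRNA peaks under 50% reciprocal overlap.

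The chromosomes differed less than the divisions did. The share of NT siRNA sites uncalled lay between 4.26% on chromosome 11 and 6.73% on chromosome 13, with 6.50% on chromosome 16. With 5.42% of the sites uncalled, the neighbours of most would be called sites wherever they lay: 3983 had called NT siRNA sites on either side, 538 stood in pairs, 36 in runs of 3 and 12 in runs of 4. A run of 4 lay at chr8:128394825-128407020 in Nrp1, the gene of a co-receptor for semaphorins and VEGF, with NT siRNA folds of 3.07 to 6.76. Another spanned chr5:98574773-98791684 at Cfap299, and the last was intergenic at chr7:70712336-70788305.

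**Figure D3:**
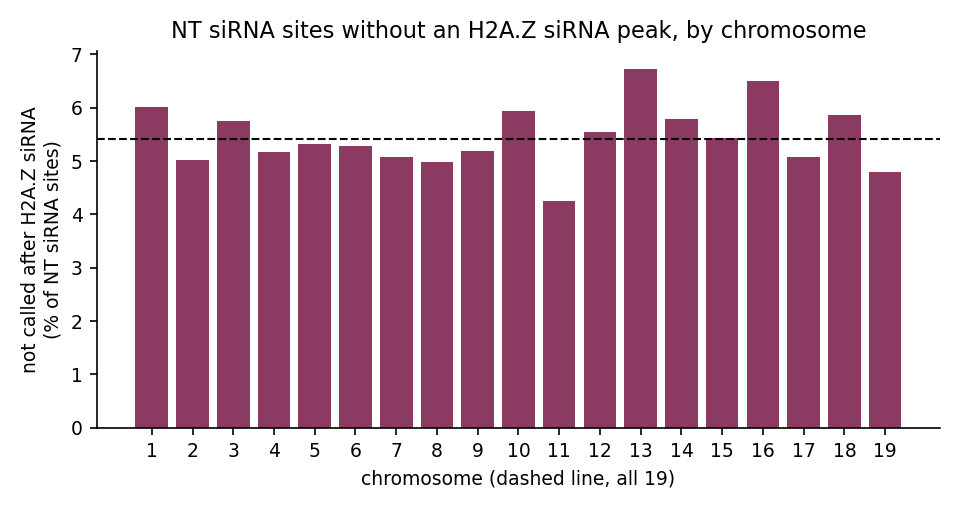
Percentage of the NT siRNA sites on each chromosome without an H2A.Z siRNA peak, with the value over all 19 as a dashed line (5.42%). Bars range from 4.26% on chromosome 11 to 6.73% on chromosome 13.

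Most uncalled sites lay over 1000 bp from an H2A.Z siRNA peak, and no distance for random positions was computed beside this. The nearest H2A.Z siRNA peak was at a median distance of 4243 bp, within 150 bp of 46 sites and within 1000 bp of 826 (18.1%). It was over 10000 bp away from 1178. Sites with WT and null peaks lay farthest, at a median of 8999 bp, and those with neither lay nearest, at 3376 bp. On the other side of the rule, the H2A.Z siRNA peak of lowest −log10 q at any called site had a −log10 q of 1.35, a fold of 1.48 and 60 fragments, at chr4:137635856-137636715, where the NT siRNA fold was 3.35, and the lowest H2A.Z siRNA fold at a called site was 1.28. The nearest uncalled site was 6 bp from an H2A.Z siRNA peak. The NT siRNA and H2A.Z siRNA lists skip 74 and 79 running peak numbers, and 1 uncalled site lies in a stretch where such a number of the H2A.Z siRNA list would fall.

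Beyond the rRNA-like pair, the strongest uncalled sites were single intronic or intergenic elements. The third site with WT and null peaks, in an intron of Exoc6b, a subunit of the exocyst that tethers secretory vesicles, had a fold of 12.9 after NT siRNA (62 fragments), 6.21 in null and 3.86 in WT. Its nearest H2A.Z siRNA peak was 41151 bp away. Its window holds 2 GGAATG words, 1 TTGGCA and 1 TGTGGT.

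The strongest site with a null peak alone, intergenic on chromosome 10, had a fold of 13.5 after NT siRNA (65 fragments) and 7.69 in null. The next lay in an intron of Nrg1, which encodes the ERBB ligand neuregulin 1, with folds of 12.3 and 4.91. The third, intergenic at chr10:11239131-11239607, had 10.9 and 4.43. These sites were picked for their NT siRNA fold and the lists differ in depth, so the NT siRNA and null folds are given side by side and not compared.

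Among sites with a WT peak alone, the highest NT siRNA folds were 11.3 at an intergenic site on chromosome 4, 10.7 in an intron of Gm31135 and 10.2 in an intron of Ulk4, a kinase-like gene. The WT folds there were 2.64, 2.84 and 3.05. The first was 595 bp from an H2A.Z siRNA peak, and the others were 11853 and 5565 bp away.

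With neither WT nor null peaks, the highest was 14.1 (68 fragments) in an intron of Gm11359 on chromosome 13, 21914 bp from an H2A.Z siRNA peak. An intergenic site at chr10:42972761-42973058 had a fold of 10.7.

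**Figure D4:**
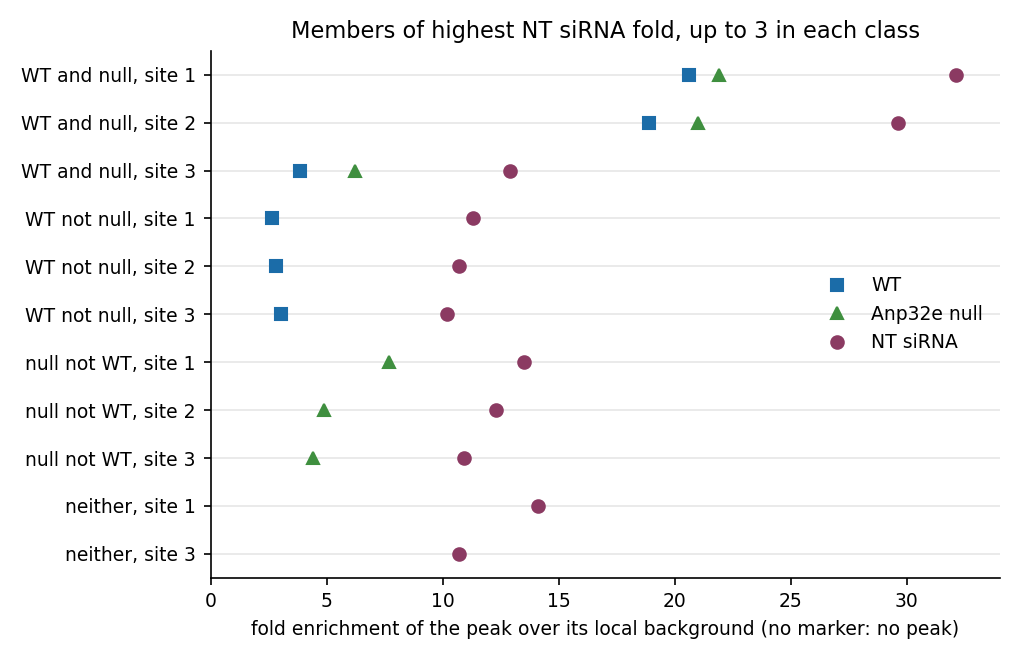
Fold enrichment over local background (horizontal) of 11 uncalled sites of highest NT siRNA fold, up to 3 in each division, in WT (squares), Anp32e null (triangles) and NT siRNA cells (circles); a missing marker means no peak. The rRNA-like pair stands at 29.6 and 32.1 after NT siRNA, and the other 9 lie between 10.2 and 14.1.

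Peaks in WT and null cells gave values that the rule had not used. At the 673 uncalled sites with both, the median peak stood at percentile 40.3 by fold of the WT list and 30.7 of the null list. Called sites with both stood at 63.3 in either list. Compared within bands of NT siRNA fold, uncalled sites ranked higher in WT than called sites did: 29.8 against 21.5 in the weakest band, 39.0 against 31.4, 44.8 against 37.9, and 46.6 against 43.5 in the fourth. In null, the same bands gave 19.5 against 16.0, 24.7 against 26.6, 34.4 against 34.2, and 36.1 against 41.0, with no fixed order.

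Over all NT siRNA sites, uncalled sites were rarer at promoters. An NT siRNA peak within 1 kb of a GENCODE transcription start site was found at 10.4% of them (9.59 to 11.4%, and 5.69 to 16.2% over the autosomes), against 24.9% of called sites, and the share was lower in all 19 autosomes. In the 4 weakest bands of NT siRNA fold, 14.2, 8.51, 8.19 and 7.87% of uncalled against 18.8, 15.0, 15.0 and 16.1% of called sites were promoter sites. By division, 15.0% of uncalled sites with WT and null peaks were at promoters, 12.6% with WT alone, 10.5% with null alone and 9.00% with neither. The corresponding called sites gave 30.0, 12.7, 11.2 and 12.0%. Among sites whose local background was at the genome-wide level, which were 66.4% of uncalled and 30.4% of called sites, the promoter shares were closer, at 9.06 against 10.6%. There the order was reversed with WT and null peaks, at 14.7% of uncalled against 11.9% of called sites, and with null alone, at 9.54 against 8.02%, was nearly level with WT alone, at 10.4 against 10.3%, and was kept with neither, at 7.06 against 9.05%. The share at promoters was 29.8% of uncalled against 41.6% of called sites among the top 20000 peaks of each list, and 19.2 against 25.8% of NT siRNA peaks under reciprocal overlap.

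By GENCODE feature at the summit, 54.8% of uncalled sites were intronic and 37.9% intergenic, against 47.6 and 37.4% of called sites. UTRs held 2.56 against 8.24% and coding exons 1.95 against 3.36%. Divisions are given in the order WT and null, WT alone, null alone and neither. Within them the intronic shares were closer, at 48.6, 56.8, 55.0 and 55.8% of uncalled against 44.9, 53.5, 53.4 and 55.4% of called sites. UTR shares were 3.86, 1.58, 1.75 and 2.56% against 10.2, 3.22, 3.03 and 3.21%. The median distance to a start site was 11142 bp against 7227 bp.

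Of 14929 NT siRNA sites at protein-coding promoters, 246 were uncalled, 1.65%. With WT and null peaks, the highest NT siRNA folds were at R3hdm2 (6.79), Lrriq4 (5.74), Cav3, the muscle caveolin (5.33), Galnt5, which starts mucin-type O-glycans (5.12), and Cmklr1, a chemerin receptor (5.12). At Cav3 and Galnt5 the WT folds were 7.57 and 6.88, at percentiles 80.4 and 76.3 of the WT list, and the null folds were 4.80 and 4.91. Their WT peaks were 877 and 996 bp wide and their NT siRNA peaks 264 and 338 bp. The peak at Cmklr1 stood at percentile 1.33 of the WT list and 23.1 of the null list. The lists differ in depth and the sites were picked on their NT siRNA fold, so these values are no comparison of the cells.

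Promoter sites with a WT peak alone were led by Dpysl4 (6.56), Tiam2, a Rac exchange factor (5.49), H2-Eb1, an MHC class II chain (5.33), Slc9a9, a sodium-proton exchanger (5.23), and 2310022A10Rik (5.12). Their WT folds were 2.13 to 3.16. The starts of other genes lay nearer at 2 of them: the Slc9a9 site was in an exon of Gm29395, with its summit 22 bp from that start and 1113 bp from that of Slc9a9, and the H2-Eb1 site was in Gm20513, at 736 against 883 bp. With a null peak alone they were led by Vip, the gene of vasoactive intestinal peptide, with a fold of 8.71 after NT siRNA and 3.60 in null. Vip had the highest fold of all protein-coding promoter sites named here. Gm15737, Cyb5rl, Dchs2 and Gnb4, a G protein beta subunit, followed at 5.12, 4.86, 4.49 and 4.42. With neither, the leading promoters were Mak, a germ cell kinase (5.74), Gm765 (5.33), Stum (4.92), Prlr, the prolactin receptor (4.71), and Synj1, synaptojanin 1 (4.71). Their pileups were 22 to 27 fragments, against a lowest call of 11.

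Most of the gene lists had at most 1 uncalled promoter site. At the 1.65% over all protein-coding promoters, most of these lists are too short for a count of 0 to set them apart. Of 33 NT siRNA sites at promoters of 30 fibroblast and mesenchymal genes, 1 was uncalled (3.03%), at Zeb2, a repressor of epithelial genes, where the fold was 3.10. NT siRNA peaks stood at the starts of 27 of these 30 genes, but also at 8 of 10 epithelial, 9 of 10 endothelial and 3 of 10 blood cell markers, so promoter peaks alone did not define the cell type. None of 22 promoter sites of H2A.Z genes, chaperones and exchange complexes, 16 of AP-1 factors, 44 of the TGF-beta and BMP pathway, 53 of the Wnt pathway or 77 of cytosolic ribosomal protein genes was uncalled. For 346 sites at numbered zinc finger genes it was 1, at Zfp853, and for 80 sites of collagens, MMPs, TIMPs and ADAMTS 1, at Col13a1. The epithelial, endothelial, blood cell, neuronal and pluripotency markers had 0 of 9, 10, 4, 7 and 8 promoter sites uncalled.

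Over all protein-coding promoters the share was 1.65%, and some other lists, each resting on few uncalled sites, lay above it. Voltage-gated channel genes had 7 of 104 promoter sites uncalled (6.73%): Cacnb2, Kcna5, Kcnb2, Kcnc2, Kcnd2, Kcnq1 and Scn3b, with NT siRNA folds of 2.66 to 4.51. Cadherins had 4 of 49 (Dchs2, Pcdh8, Pcdhb19 and Pcdhb21), and olfactory and vomeronasal receptors 2 of 15 (Olfr9 and Vmn2r18). Homeobox, SOX, PAX, FOX, GATA and T-box factors had 6 of 191 (3.14%): Foxb1, Foxp2, Hoxc12, Hoxd3, Pitx1 and Sox6. At Sox6, a regulator of cartilage and muscle differentiation, the fold was 3.69 after NT siRNA, 4.09 in null and 7.36 in WT. Every uncalled site named in this paragraph had an NT siRNA fold below 5.02. In the 3 weakest bands, which end there, 21.8, 15.3 and 9.27% of all NT siRNA sites were uncalled. The lists were not compared with promoters of like fold.

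Inside gene bodies the share was closer to the whole, 5.38% of 47059 sites in protein-coding genes. Collagens, MMPs, TIMPs and ADAMTS had 37 of 478 uncalled (7.74%), the TGF-beta and BMP list 12 of 217 and the Wnt list 11 of 223. Ror2, a WNT5A receptor, held 3 of these, the highest with a fold of 7.38, and Lrp6, the Wnt co-receptor, held 3. The H2A.Z list had 1 of 41, in Smarca4, a remodelling ATPase, with a fold of 3.47. The genes with most uncalled sites were long: Mecom (9 of 54 NT siRNA sites) and Magi1 (9 of 49), then Pde4d (8 of 83), Ptprg (6 of 27) and Lpp (6 of 64). None of the sites in these 5 genes exceeded a fold of 6.15.

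A smaller group of uncalled sites stood on a high local background. At 207 sites (4.53%) the local background was over 5 times the genome-wide level, the median fold was 2.49 and the median summit held 74 fragments. Called sites over the same background had a median fold of 9.54 and 293 fragments. For the 207 uncalled sites the nearest H2A.Z siRNA peak was at a median of 1082 bp, against 7418.5 bp for the 3034 uncalled sites at the genome-wide level. Examples, picked by pileup after the values were seen, were sites near Hes1, a Notch target (172 fragments, fold 1.47), and Ccn1, a matricellular growth regulator (201 fragments, fold 2.19), and 1 in an intron of Tango2 (292 fragments, fold 5.01). The share uncalled was 11.1% of NT siRNA sites at the genome-wide background and 1.62% above 5 times that level.

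The sequence at the summit was not used by the rule. TGACTCA, the AP-1 word, stood in 9.83% of uncalled (9.00 to 10.7%) and 25.2% of called windows of 201 bp. TTGGCA, the NFI half-site, had the reverse order, at 22.8% (21.6 to 24.1%) against 15.0%. Both differences had the same direction in all 19 autosomes. TGTGGT (RUNX) was found in 22.0 against 19.8%, higher in 18 autosomes, and GGAATG (TEAD) in 21.8 against 19.7%, higher in 16.

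Among peaks of like NT siRNA fold the AP-1 and NFI differences were seen in each band. In the 4 weakest bands of NT siRNA fold, AP-1 words were in 7.20, 12.1, 10.9 and 10.5% of uncalled and 17.0, 22.5, 24.5 and 25.6% of called sites. NFI half-sites were in 18.8, 22.2, 27.3 and 28.6% against 13.8, 15.6, 14.6 and 15.8%, so the distance grew with fold. RUNX words were slightly rarer at uncalled than at called sites of the weakest band, where called sites had 18.6%, but were at 23.3 against 19.7% in the second of these bands and 28.3 against 21.0% in the fourth. TEAD words reached 27.0 against 20.8%.

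**Figure D5:**
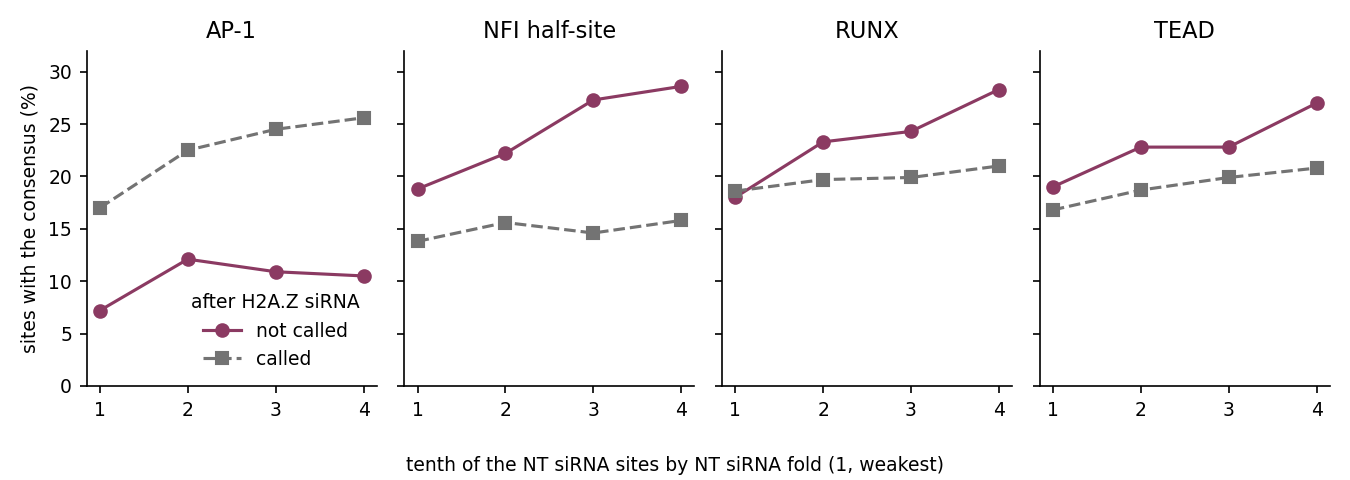
Percentage of sites whose 201 bp window holds each consensus (vertical, 4 panels) in the 4 weakest bands of NT siRNA fold (horizontal), for uncalled (purple circles) and called sites (grey squares). AP-1 words are rarer at uncalled sites in every band (10.5 against 25.6% in the fourth) and NFI half-sites more frequent (28.6 against 15.8%).

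All 4 divisions showed both orders. AP-1 words were in 11.0, 10.8, 11.4 and 9.14% of uncalled sites with WT and null, WT alone, null alone and neither, against 26.5, 21.4, 26.3 and 19.3% of the called sites. NFI half-sites were in 22.7, 26.6, 20.8 and 22.5% against 14.5, 17.2, 15.9 and 16.1%. TEAD words were in 27.6, 26.0, 27.4 and 18.9% against 20.4, 17.6, 20.7 and 16.2%.

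GGGCGG (SP1) was in 3.70% of uncalled against 13.1% of called windows, and in 4.58, 3.33, 2.43 and 3.94 against 7.61, 6.48, 6.92 and 7.33% in the 4 weakest bands of fold. With WT and null, WT alone, null alone and neither it was in 6.39, 3.35, 5.04 and 2.93 against 16.2, 5.29, 5.21 and 5.02%. The gap was thus widest with WT and null peaks and nearly absent with null alone. The CTCF consensus was in 1.99 against 4.26%, and its share was lower in each of those bands, from 1.42 against 1.82% in the weakest to 2.89 against 4.76% in the last. CCAAT (NF-Y) was in 25.7 against 24.1%, and the gap was wider in the 3 later bands, at 22.0, 26.5, 28.4 and 31.2 against 21.6, 22.5, 22.7 and 24.5% in the same bands. ACCGGAAGT (ETS) was in 0 of 4569 uncalled windows, with an upper bound of 0.0840%, and in 224 of 79699 called windows (0.281%). Of these 224, 218 were at sites with WT and null peaks, and in the 4 weakest bands of fold called sites held it at 0.0303, 0.0140, 0.0916 and 0.0373%, so a gap was not detectable at like fold. TGACGTCA (CREB) was in 0.285 against 0.642% over all folds, and in the 4 weakest bands in 0.218, 0.542, 0 and 0.262 against 0.409, 0.266, 0.288 and 0.249%, with no fixed order. TGTTTAC (FOX) was in 3.26 against 2.75%. CAGCTG (an E-box) was in 16.0 against 15.1%, and its order turned with fold, at 16.7, 16.9, 14.3 and 15.0 against 15.6, 15.6, 15.3 and 15.6% in those bands.

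Base composition moved with these results. The median GC content of the window was 47.3% at uncalled and 49.8% at called sites, and the mean was lower in all 19 autosomes. In 3 equal bands of GC content over the 4 weakest fold bands, AP-1 words stayed rarer at uncalled sites, at 11.2 against 27.5%, 10.9 against 25.1% and 5.47 against 15.7% from low to high GC. NFI half-sites stayed more frequent, at 24.0 against 15.8%, 22.4 against 15.5% and 19.2 against 13.7%. RUNX words were closer together, at 24.0 against 22.4%, 22.7 against 21.7% and 16.8 against 15.8%, and so were TEAD words, at 23.9 against 21.6%, 21.7 against 20.3% and 17.7 against 15.8%. The part of depth, peak width and the single NT siRNA library in these differences was not tested.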

How the data were processed

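Peaks were called by the authors on merged, Bowtie2-aligned ATAC-seq fragments (mm10, PCR duplicates removed with Picard) with MACS2 in paired-end mode. Their methods filter blacklisted and mitochondrial peaks for later steps. Running peak numbers are absent from the deposited NT siRNA (74) and H2A.Z siRNA (79) lists and from neither of the others, so the lists may not have been filtered alike. The deposited values were used as given: each peak's fold enrichment over local background, its −log10 p-value and −log10 q-value, and its summit. No count per library was used, and no replicate is available within a list.

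Fold and p were solved for the fragment pileup and local background behind each peak (all pileups were whole within 0.05). This step and the merging were tested on simulated data. Peaks on chromosomes 1 to 19 were merged at a gap of 0 bp, and a site took its strongest NT siRNA peak. For the thinned H2A.Z siRNA list, the summit pileup of each called peak was redrawn once by the ratio of the genome-wide backgrounds. Peaks then below the lowest −log10 p of the NT siRNA list were dropped, and the others kept their edges. Features came from GENCODE M21, and sequence came from GRCm38.p6. Strongest sites were the 3 of highest NT siRNA fold in each of the 4 divisions (1 of these is not reported here), and promoter genes were the 5 of highest fold within 1 kb of a protein-coding start. Genes of the 17 gene lists were named where an uncalled site lay at their start, except that Ror2, Lrp6 and Smarca4 were named for sites inside the gene. Shares have 95% Wilson intervals, which cover counting error only, since sites are not independent. The members and lists were chosen with earlier results of these data known. Python 3.11.15, pandas 2.3.3 and SciPy 1.17.1 were used.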

Additional observations from a re-analysis of the deposited data

How the results depend on the processing

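No paired analysis was possible because the libraries of a group were merged into 1 list, and leaving out a replicate could not be run for the same reason. A limit on all values is that the NT siRNA list rests on 1 library and the H2A.Z siRNA list on a background 4.59 times as deep. Of 106 values under alternatives, 54 stayed inside the interval or spread of the value reported and 52 did not; the cause was not tested.

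Order of values below: share of NT siRNA sites uncalled, share of the uncalled sites with WT and null peaks (14.7% as reported), share at promoters, median NT siRNA fold. A −log10 q of 5 or more gave 3.36, 18.1 and 8.62% with a fold of 4.30 for NT siRNA peaks alone, and 3.78, 12.6 and 9.40% with 4.30 for all lists. Equal numbers of peaks gave 10.4, 24.6 and 12.2% with 4.22, and the top 20000 gave 16.6, 30.6 and 29.8% with 12.8. Reciprocal overlap of 50% gave 18.6, 42.7 and 19.2% with 4.16. The thinned H2A.Z siRNA list gave 9.59, 18.6 and 12.2%, and counting sites within 1000 bp of an H2A.Z siRNA peak as called gave 4.44, 16.3 and 9.27%. Summit overlap moved the first share to 5.83%. Leaving out narrow NT siRNA peaks, a choice added after seeing the data, moved the first shares to 4.38 and 15.8%. Promoters of 500 bp gave 6.87% and protein-coding starts 5.38%. Merging across 150 bp, or merging the siRNA lists alone, moved none of these 4 values beyond its interval or spread.

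Among the words, windows of 50 bp on either side of the summit gave AP-1 5.82, SP1 2.28, NF-Y 13.6, TEAD 12.6, RUNX 12.6, NFI 12.8, CTCF 1.53, FOX 1.60 and E-box 8.58% of uncalled sites, with AP-1 16.9 and NFI 8.24% at called sites. Without uncalled sites within 1000 bp of an H2A.Z siRNA peak, AP-1 was at 10.6 and NFI at 23.4%, and no word left its interval. Further redefinitions of the uncalled sites were added after seeing the data. With −log10 q of 5 or more the shares were AP-1 10.8, CTCF 2.52, NF-Y 27.3, NFI 25.9, RUNX 23.8 and TEAD 23.8%. With the thinned list they were NF-Y 24.4, NFI 20.2, SP1 4.76 and TEAD 20.4%. Without narrow peaks they were AP-1 8.83 and FOX 2.65%. In these 3 redefinitions AP-1 words stayed below and NFI half-sites above the shares at called sites as reported.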

Other observations

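Outside the 19 autosomes, 124 of 2070 NT siRNA sites on the X chromosome had no H2A.Z siRNA peak (5.99%, 95% Wilson interval 5.05 to 7.10%), with a median NT siRNA fold of 3.89. The Y chromosome had 1 of 15.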
